A study of Mus musculus with 2 samples.

Results

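The Schlafen family was described across 2 RNA sequencing libraries of mouse bone marrow-derived macrophages. The 7 genes Slfn1, Slfn2, Slfn3, Slfn4, Slfn5, Slfn8 and Slfn9 were taken by symbol, and each had a row among the 22060 genes of the deposited count table. One library came from macrophages with the T403A form of STAT2, which has alanine in place of threonine 403, and the other from wild-type (WT) macrophages. Both came from C57BL/6 mice aged 8 weeks. Marrow cells were cultured in M-CSF, which drives progenitors to become macrophages, over 7 days, and were harvested without stimulation at 0 h. How the substitution was introduced, the sex of the mice, and whether a library holds 1 mouse or a pool are not stated in the labels. With 1 library per group, no difference below has a replicate check or a p-value, and each one is between these libraries rather than between genotypes.

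Schlafen proteins are a mammalian family known for control of immune cell growth and of viral infection, and several of them bind or cleave transfer RNA. In the mouse the genes lie together on chromosome 11 and are known as interferon-inducible genes. STAT2 is a subunit, with IRF9, of the transcription factor complex that type I interferon activates. That complex binds a DNA motif called the interferon-stimulated response element. The members fall into short proteins (Slfn1, Slfn2), intermediate ones (Slfn3, Slfn4), and long ones with a helicase-like end (Slfn5, Slfn8, Slfn9). The longest coding sequences in GENCODE M21 follow that order, with 1011 and 1134 bases for Slfn1 and Slfn2, 1920 and 1806 for Slfn3 and Slfn4, 2652 for Slfn5, and 2730 each for Slfn8 and Slfn9.

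All 7 Schlafen genes were lower in the T403A library, by very different amounts. The folds ran from 63.8 for Slfn1 and 32.1 for Slfn4 to 2.52 for Slfn2. Each member was at least 2-fold lower with an exact 95% counting interval that excluded 1, and none was higher. The same rule called 6.08% of the 11199 measured genes lower and 7.21% higher (681 and 808 genes). A gene counted as measured with a summed count of at least 20. The median log2 ratio, T403A over WT, was -2.81 over the members and 0.01 over all measured genes. Together the members took 9313 of 18658381 counts in T403A, 0.0499% (95% Wilson interval 0.0489 to 0.0509). In WT they took 32939 of 16033032, 0.205% (0.203 to 0.208). Their pooled level was 467 CPM in T403A and 2196 CPM in WT, 4.70-fold lower (4.59 to 4.81), and 9.10-fold lower (8.76 to 9.45) when Slfn2 was left out. CPM, the usual depth-normalised unit, are counts relative to the TMM-scaled library total, and all intervals cover counting error only. Scaling by the unadjusted library totals moved the median log2 ratio of all measured genes by 0.19, with 560 genes then called lower and 1122 higher, and all 7 members were still called lower. In RNA from whole cultures, fewer cells of a type and less RNA per cell cannot be told apart.

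**Figure D1:**
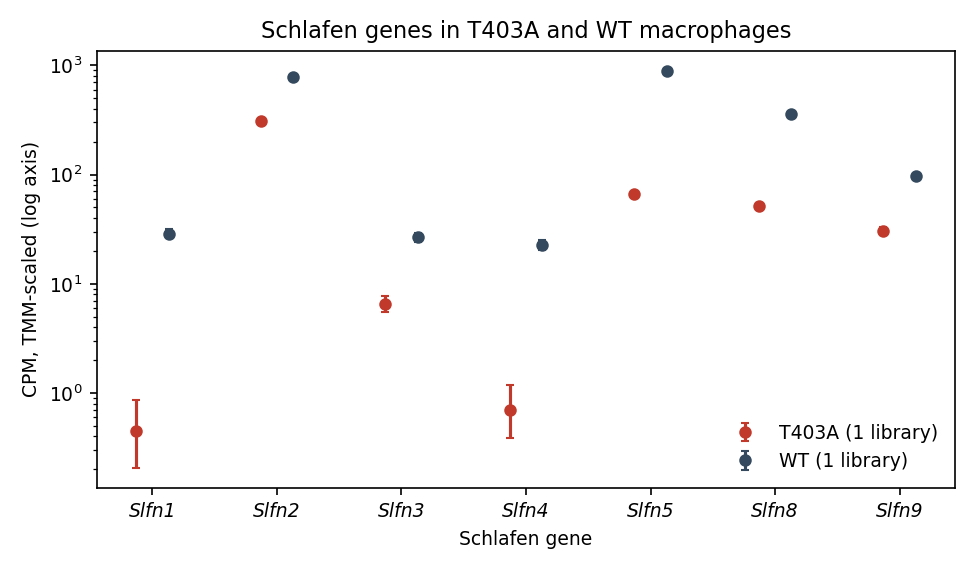
Level of each Schlafen gene in CPM on a log axis, with the T403A library to the left of the WT library for each gene; points are single libraries and bars are exact 95% Poisson counting intervals. The T403A point lies below the WT point for all 7 genes, with the widest gaps for Slfn1 (0.451 CPM in T403A and 28.8 CPM in WT) and Slfn4 (0.702 CPM in T403A and 22.5 CPM in WT).

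The promoter sequences of RefSeq (build GRCm38.p6) were searched because all members were lower together. All 7 members had a window, of 250 bases before to 50 after the gene start, and Slfn8 had 2 overlapping windows, of which the first is used here. The interferon-stimulated response element was searched as GAAA, any 2 bases and GAAA again, on both strands. It was found in 3 of the 7 members, Slfn5, Slfn8 and Slfn9, and in 1079 of 27025 genes with a window (3.99%). The gamma-activated site, TTCNNNGAA on both strands, was found in no member and in 2582 of the 27025 genes (9.55%). The 250 bases before the start follow for the long members, 5′ to 3′ on the gene's strand, with the response element in capitals. Slfn1, the member with the largest difference, is shown beside them, with no exact match and so no capitals. Near matches were not searched or marked.
Slfn5, chr11:82951852-82952101, plus strand: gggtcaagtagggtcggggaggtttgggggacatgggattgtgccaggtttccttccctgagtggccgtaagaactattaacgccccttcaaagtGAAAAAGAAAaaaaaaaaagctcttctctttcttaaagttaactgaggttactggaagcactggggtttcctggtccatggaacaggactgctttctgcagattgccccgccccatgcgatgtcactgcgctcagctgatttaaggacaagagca
Slfn8, chr11:83020811-83021060, minus strand: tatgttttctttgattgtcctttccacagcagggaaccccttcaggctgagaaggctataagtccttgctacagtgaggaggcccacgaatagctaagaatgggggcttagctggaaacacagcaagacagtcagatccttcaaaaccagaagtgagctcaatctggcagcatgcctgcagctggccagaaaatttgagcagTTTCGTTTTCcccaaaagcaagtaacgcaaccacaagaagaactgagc
Slfn9, chr11:82991831-82992080, minus strand: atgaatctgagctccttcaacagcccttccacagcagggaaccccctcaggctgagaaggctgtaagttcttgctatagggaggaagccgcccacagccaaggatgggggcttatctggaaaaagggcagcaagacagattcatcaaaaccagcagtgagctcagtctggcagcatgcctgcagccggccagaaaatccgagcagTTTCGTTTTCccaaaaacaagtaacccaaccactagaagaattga
Slfn1, chr11:83116570-83116819, plus strand: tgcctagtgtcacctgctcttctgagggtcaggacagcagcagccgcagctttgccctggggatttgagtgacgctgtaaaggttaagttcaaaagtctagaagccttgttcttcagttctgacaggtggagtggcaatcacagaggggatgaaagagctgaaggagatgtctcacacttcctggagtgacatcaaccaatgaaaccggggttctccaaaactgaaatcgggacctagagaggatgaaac

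In Slfn8 and Slfn9 the element is the same 10 bases, read from the opposite strand, at positions -48 to -39 and -45 to -36 from the RefSeq start. Their windows were identical at 83.4% of 295 aligned bases. In Slfn5 the element lies further from the start, at -155 to -146, followed by a run of A. The RefSeq start of Slfn5 lies downstream of its GENCODE start. A match is only a match of letters, and binding was not measured.

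The windows of the other members, Slfn1, Slfn2, Slfn3 and Slfn4, held no response element of these exact letters. The longest stretch common to all 4 on the gene's strand was ACTTCCTGG, at -74 to -66 in Slfn1, -55 to -47 in Slfn2, -73 to -65 in Slfn4 and -42 to -34 in Slfn3. It was not found in the windows of Slfn5, Slfn8 and Slfn9. It was found in 270 of the 27025 genes (0.999%) when both strands were searched. It was picked after the sequences were seen. The stretch is shown in capitals with its flanks.
Slfn1, chr11:83116731-83116769, plus strand: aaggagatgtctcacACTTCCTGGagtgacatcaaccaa
Slfn2, chr11:83065042-83065080, plus strand: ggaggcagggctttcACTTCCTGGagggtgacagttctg
Slfn4, chr11:83175098-83175136, plus strand: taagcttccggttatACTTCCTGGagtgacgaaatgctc
Slfn3, chr11:83191273-83191311, plus strand: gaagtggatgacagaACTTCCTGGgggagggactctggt

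The folds of the members with each exact match are given as a description. Looser forms of the element were not searched, so a member without a match may still hold a near match. The members with the response element were 13.3-fold, 6.99-fold and 3.18-fold lower. Those with the shared stretch were 63.8-fold, 32.1-fold, 4.05-fold and 2.52-fold lower. The stretch was chosen as common to Slfn1 to Slfn4, so its spread over their folds was fixed by that choice.

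**Figure D2:**
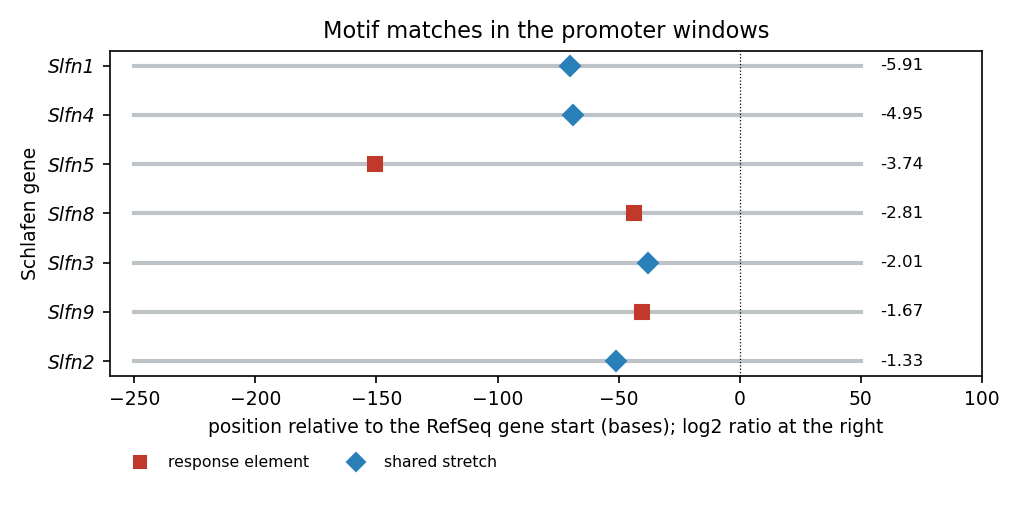
Positions of motif matches in the RefSeq promoter windows of the 7 Schlafen genes, in bases from the gene start (dotted line at 0), ordered by the log2 ratio T403A over WT printed at the right. Red squares mark exact matches of the response element, and blue diamonds mark the stretch chosen as common to Slfn1 to Slfn4. Looser forms of the element were not searched.

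The short members stood at opposite ends of the family. Slfn1, the founding member, was described in mouse T cells, where forced expression slows growth. It lies at chr11:83116849-83122670 on the plus strand (GRCm38). Slfn1 had 9 counts in the T403A library, 0.451 CPM (95% counting interval 0.206 to 0.857), against 432 counts in the WT library, 28.8 CPM (26.1 to 31.6). That is 63.8-fold lower (33.3 to 140), the 12th lowest ratio of the 11199 measured genes. With 9 counts the T403A library sets the width of this interval. Slfn2 is required for the quiescence and survival of mouse T cells and monocytes, and in T cells its protein shields transfer RNAs from cleavage. It lies at chr11:83065112-83070678 on the plus strand. Slfn2 had 6220 counts in T403A, 312 CPM (304 to 320), and 11771 counts in WT, 785 CPM (771 to 799). It was 2.52-fold lower (2.44 to 2.59), the smallest difference of the family. The ratio of Slfn1 was 25.4 times smaller than that of Slfn2 (13.2 to 55.9), a comparison in which library scaling cancels.

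The intermediate members differed from each other although their sequences are close. Slfn3 (chr11:83191330-83215154) and Slfn4 (chr11:83175186-83190216) are neighbours on the plus strand, and their coding sequences were identical at 91.6% of 1779 aligned bases. Their promoters share the stretch ACTTCCTGG printed above. Slfn4 is known as a gene of activated macrophages and of suppressive myeloid cells in the mouse stomach. Slfn4 had 14 counts in T403A, 0.702 CPM (0.384 to 1.18), against 338 in WT, 22.5 CPM (20.2 to 25.1), and was 32.1-fold lower (18.9 to 59.3). Slfn3 had 131 counts in T403A, 6.57 CPM (5.49 to 7.80), against 399 in WT, 26.6 CPM (24.1 to 29.3), and was 4.05-fold lower (3.32 to 4.97). As TPM, an abundance that divides counts by the deposited gene length and has the same sum in each library, Slfn3 was at 6.99 TPM and Slfn4 at 0.643 TPM in T403A, against 23.5 TPM and 17.1 TPM in WT. The ratio of Slfn3 was 7.91 times that of Slfn4 (4.45 to 15.2). The counts of both genes summed to 7.27 CPM in T403A and 49.1 CPM in WT, 6.76-fold lower (5.65 to 8.13).

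Among the long members, Slfn5 had the largest difference. Slfn5 encodes a nuclear protein, whose human counterpart restricts herpesvirus transcription. It lies at chr11:82951349-82964840 on the plus strand by GENCODE, and the response element printed above lies within that span, upstream of the RefSeq start. Slfn5 had 1314 counts in T403A, 65.9 CPM (62.4 to 69.6), against 13183 in WT, 879 CPM (864 to 894), and was 13.3-fold lower (12.6 to 14.1). The non-coding gene Slfn5os overlaps 8.84% of its exon bases on the opposite strand, and the strand setting of the counting is not stated. Slfn8 and Slfn9 are neighbours on the minus strand (chr11:83002158-83020810 and chr11:82978390-82991830), related to human SLFN11 and SLFN13, whose proteins cleave transfer RNA. Slfn8 had 1021 counts in T403A, 51.2 CPM (48.1 to 54.4), against 5372 in WT, 358 CPM (349 to 368), and was 6.99-fold lower (6.54 to 7.49). Slfn9 had 604 counts in T403A, 30.3 CPM (27.9 to 32.8), against 1444 in WT, 96.3 CPM (91.4 to 101), and was 3.18-fold lower (2.89 to 3.50). The ratio of Slfn8 was 2.20 times smaller than that of Slfn9 (1.96 to 2.48), although their coding sequences were identical at 92.7% of 2730 bases. Summed, Slfn8 and Slfn9 were at 81.5 CPM in T403A and 454 CPM in WT, 5.58-fold lower (5.28 to 5.89). Over the 21 pairs of members, 20 had ratios whose quotient had an interval that excluded 1. The exception was Slfn1 with Slfn4, with a quotient of 0.503 (0.190 to 1.27).

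Close relatives can exchange reads, so the members' GENCODE transcripts were compared with those of all other genes on both strands. Windows of 50 bases found in another gene made up 0.606% of the windows of Slfn1 and 4.27% of those of Slfn2. They made up 16.0% in Slfn3, 11.3% in Slfn4, 11.1% in Slfn5, 14.6% in Slfn8 and 11.9% in Slfn9. With windows of 100 bases these shares were between 0 for Slfn1 and 6.40% for Slfn5, where Slfn5os alone accounted for 6.16%. Slfn3 and Slfn4 shared 252 windows of 50 bases with each other, 7.39% of those of Slfn3 and 6.28% of those of Slfn4. Slfn3 also shared 6.45% and Slfn4 4.01% of their 50-base windows with the gene Gm11427, which was not analysed here. With windows of 100 bases, Gm11427 held 93 of the 99 shared windows of Slfn3 and 9 of the 11 of Slfn4. Slfn8 and Slfn9 shared 389, 9.30% of those of Slfn8 and 6.52% of those of Slfn9. Slfn8 also shared 10.1% and Slfn9 8.10% of their 50-base windows with Slfn10-ps, a transcribed pseudogene beside them that was not analysed here. The read length and the treatment of multiply mapped reads are not stated in the labels or the file header, so how many reads moved between copies was not tested.

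Levels of different members were ordered by TPM. In T403A the order was Slfn2 (680 TPM), Slfn8 (45.4), Slfn5 (37.8), Slfn9 (18.4), Slfn3 (6.99), Slfn1 (0.879) and Slfn4 (0.643 TPM). In WT the order was Slfn2 (1422 TPM), Slfn5 (419), Slfn8 (264), Slfn9 (48.7), Slfn1 (46.6), Slfn3 (23.5) and Slfn4 (17.1 TPM). Neighbours in these orders differed beyond counting error except Slfn1 and Slfn4 in T403A (1.37-fold, 0.522 to 3.39) and Slfn9 and Slfn1 in WT (1.04-fold, 0.937 to 1.17). By TPM, Slfn5 and Slfn8 changed places. Slfn8 was at 1.20 times the level of Slfn5 in T403A (1.11 to 1.30). Slfn5 was at 1.59 times the level of Slfn8 in WT (1.54 to 1.64). This swap depends on the deposited gene lengths, whose error the intervals do not cover. Without division by length Slfn5 was above Slfn8 in both libraries, at 65.9 and 51.2 CPM in T403A and 879 and 358 CPM in WT. Slfn2 made up 86.1% of the family's TPM in T403A and 63.5% in WT. Slfn5 made up 4.78% in T403A and 18.7% in WT, and Slfn8 5.75% in T403A and 11.8% in WT. Slfn2 was the 143rd most abundant of the measured genes by TPM in T403A and the 65th in WT.

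**Figure D3:**
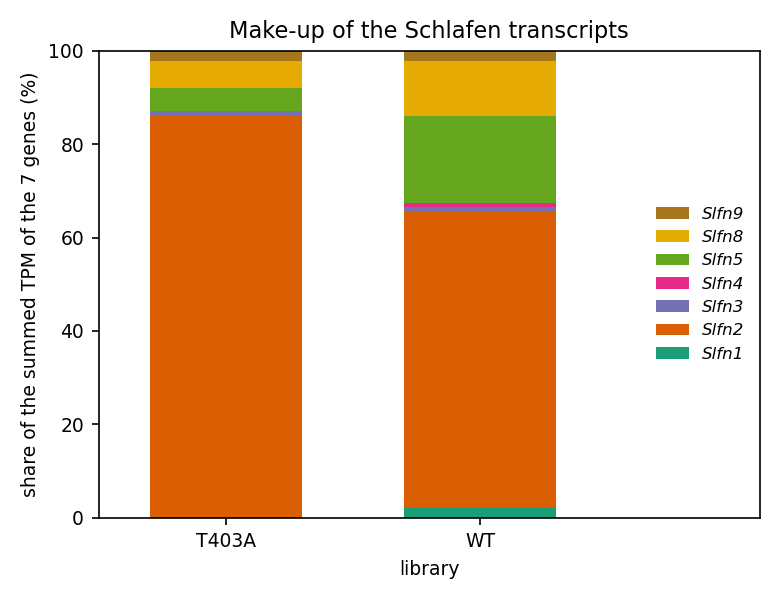
Share of each gene in the summed TPM of the 7 Schlafen genes, in percent, with the T403A library on the left and the WT library on the right. Slfn2 fills 86.1% of the T403A bar and 63.5% of the WT bar, and Slfn5 fills 4.78% of the T403A bar and 18.7% of the WT bar.

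Of the genes around the family, most were within 2-fold. The members span 263.8 kb, and 15 other protein-coding genes within 500 kb of either side were measured. Of these 1 was called lower and none higher, with a median log2 ratio of -0.09. The same rule called 6.08% of all measured genes lower and 7.21% higher. The nearest measured gene before the members, Nle1, a ribosome assembly factor, was at 7.27 CPM in T403A and 6.13 CPM in WT. The lower gene was the chemokine gene Ccl5, 574.4 kb from the start of Slfn5, at 4.41 CPM in T403A and 169 CPM in WT, 38.3-fold lower (31.0 to 48.0). Of the other Schlafen genes, Slfn14, at the far end of the group and whose protein was purified from rabbit reticulocytes as a ribosome-associated nuclease, had 0 counts in both libraries, which allows up to 0.150 CPM in T403A and 0.200 CPM in WT (3 counts each). Slfnl1 had 1 count in T403A and 0 in WT.

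**Figure D4:**
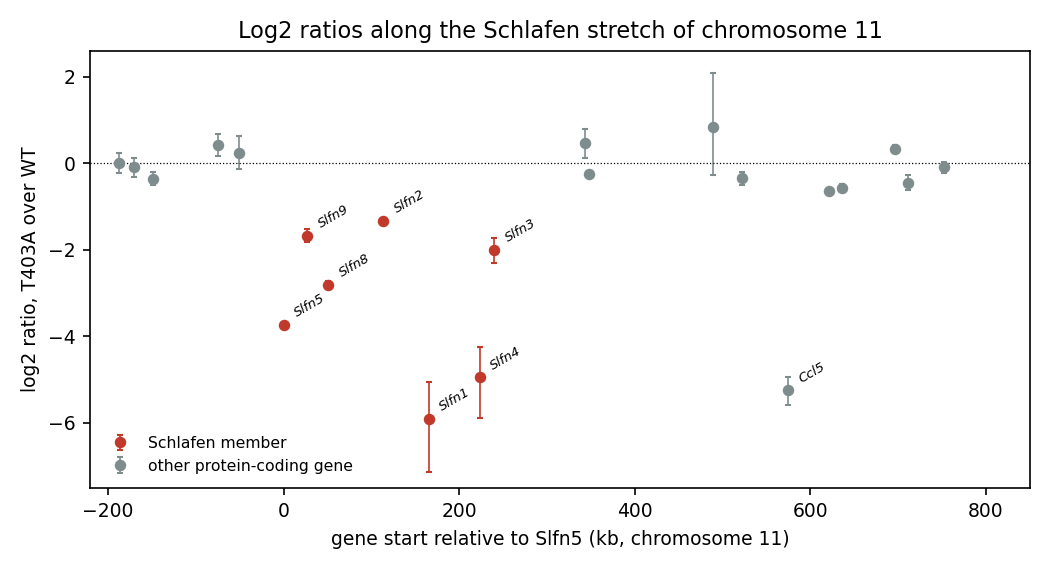
Log2 ratio, T403A over WT, of the 7 Schlafen genes (red) and 15 measured neighbours (grey), against the distance of the annotated lower-coordinate end of each gene from that of Slfn5 in kb; bars are exact 95% counting intervals, and names stand at called genes. The red points lie between -1.33 and -5.91, and the grey points lie within 1 log2 unit of 0 except Ccl5 at -5.25.

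In T403A, 6 of the 12 measured genes of type I interferon signalling were lower and 6 neither. Their median log2 ratio was -1.20. Stat2, the substituted gene, was at 84.4 CPM in T403A and 376 CPM in WT, 4.46-fold lower (4.22 to 4.71), and a substitution of 1 residue need not change the count, so it does not check the labels. Its partner Irf9 was at 45.9 CPM in T403A and 126 CPM in WT, 2.73-fold lower (2.52 to 2.96). The induced factor Irf7 was at 18.4 CPM in T403A and 581 CPM in WT, 31.6-fold lower (28.4 to 35.1). The feedback inhibitor Usp18 was at 4.61 CPM in T403A and 66.9 CPM in WT, 14.5-fold lower (11.7 to 18.1), and Socs1 was 3.25-fold lower (2.09 to 5.2). The receptor gene Ifnar1 was at 232 CPM in T403A and 447 CPM in WT, within 2-fold, as were Ifnar2, Jak1, Tyk2, Irf1 and Ptpn6. In a list of 34 other interferon-stimulated genes, 34 were lower. Over all measured genes, 6.08% were called lower. Both lists were chosen with earlier results of these data known, so their counts are descriptions only. The median log2 ratio of the interferon-stimulated genes was -3.18, beside -2.81 for the Schlafen genes. The list ran from -6.98 for Oasl1, related to an oligoadenylate synthetase, and -6.59 for Ifi44 to -1.43. Slfn1, at -5.91, lay below all but those 2 genes, and Slfn2, at -1.33, lay above the whole list. The genes of the list with the most counts were Ly6e, 4.84-fold lower (4.72 to 4.96), and Lgals3bp, 5.06-fold lower (4.91 to 5.21).

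**Figure D5:**
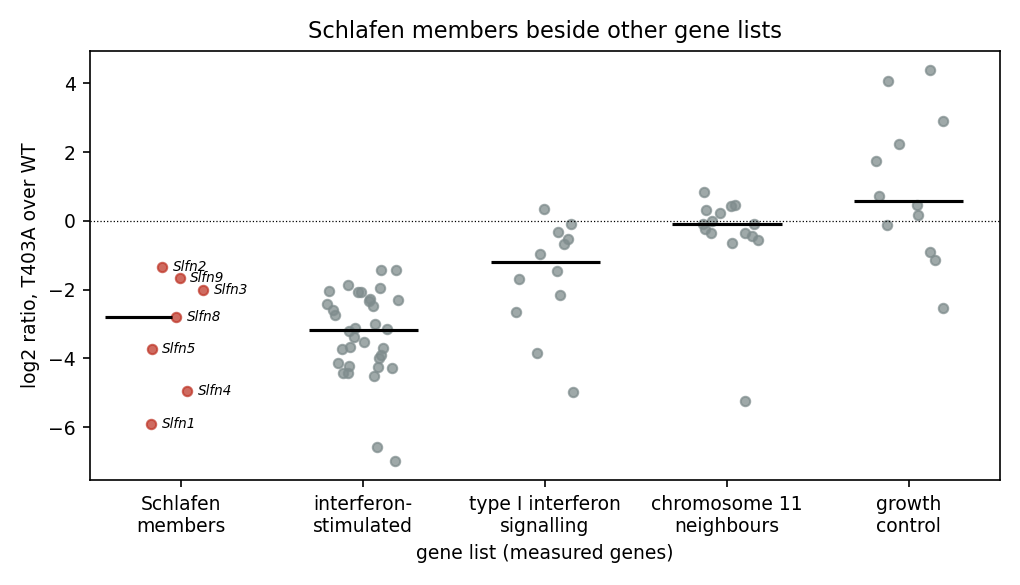
Log2 ratio, T403A over WT, of each measured gene in 5 lists, with the median of each list as a black line; sideways scatter is only for display. The Schlafen median is -2.81, beside -3.18 for 34 interferon-stimulated genes, -1.20 for 12 signalling genes, -0.09 for the chromosome 11 neighbours and 0.58 for 12 growth control genes.

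The genes most like each member in these libraries were looked up among protein-coding genes with a mean CPM within 1.5-fold of it, by the nearest log2 ratio. With only 2 libraries this likeness is a likeness of level and ratio alone. For Slfn1 they were Cd38, 54.4-fold lower, and Gm4951, 34.8-fold lower, and for Slfn4 they were Gm4951 and Ak4, 37.9-fold lower. For Slfn5 they were the interferon-stimulated genes Helz2, 13.3-fold lower, and Ifit2, 13.2-fold lower. Slfn8 was nearest to Slc16a3 and Ifi203, 7.10-fold and 6.38-fold lower, and Slfn3 to Ifi35 and Gm6377, 3.89-fold and 4.26-fold lower. Slfn2 was nearest to Marcksl1 and Slc16a10, 2.51-fold and 2.54-fold lower, and Slfn9 to Rgs1 and Trib1, 3.20-fold and 3.11-fold lower.

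Genes tied to known Schlafen functions were compared as 2 lists. Over all measured genes, 7.21% were called higher and 6.08% lower. Of 7 genes of transfer RNA cleavage and protection, 3 were higher and none lower, with a median log2 ratio of 0.25. The ribonuclease gene Rnase4 was at 52.8 CPM in T403A and 21.2 CPM in WT, 2.49-fold higher (2.19 to 2.83). Its annotated span holds that of Ang on the same strand, and shared exon bases were not checked, so these genes may not be separate observations. Ang, which encodes angiogenin, the nuclease from which Slfn2 shields transfer RNA, had 41 counts in T403A and 15 in WT, 2.06-fold higher (1.11 to 4.0), and was singled out after its values were seen. Its inhibitor gene Rnh1 was at 291 CPM in T403A and 245 CPM in WT, within 2-fold. Of 12 growth control genes, 5 were higher, 2 lower and 5 neither. The proliferation gene Mki67 was at 258 CPM in T403A and 54.8 CPM in WT, 4.70-fold higher (4.37 to 5.07), and Top2a was 7.44-fold higher (6.41 to 8.69). The cyclin genes Ccna2 and Ccnb1 were also higher, at 26.9 and 20.6 CPM in T403A and 1.27 and 1.20 CPM in WT. The cell cycle inhibitor gene Cdkn2c was 3.34-fold higher, while Cdkn1a was at 65.0 CPM in T403A and 121 CPM in WT, within 2-fold. The D-type cyclin genes Ccnd1 and Ccnd2 were 2.20-fold (1.85 to 2.62) and 5.89-fold lower (3.64 to 9.96). With scaling by library totals, Ccnd1 was 1.93-fold lower and no longer called. The part of growth in the Schlafen differences was not tested.

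Macrophage markers were high in both libraries, as the label says. For the calls below, the same rule called 6.08% of all measured genes lower and 7.21% higher. The 8 macrophage markers summed to 38805 CPM in T403A and 49171 CPM in WT, mainly from Lyz2 (29804 CPM in T403A and 36620 CPM in WT). Of the 8 markers 2 were lower, among them Fcgr1 (52.3 CPM in T403A and 458 CPM in WT). With scaling by library totals 1 was lower. Monocyte markers were lower in part, and the others measured were within 2-fold. The 8 listed genes summed to 161 CPM in T403A and 590 CPM in WT. Of the 7 measured, 3 were lower, namely Ly6c2 (41.6-fold), Hp (9.12-fold) and Cx3cr1 (2.91-fold), while Ccr2 was at 25.1 CPM in T403A and 22.7 CPM in WT. Their part in the Schlafen differences was not tested. Of 9 listed T cell markers, 7 had a row in the deposited counts. They summed to 0.301 CPM in T403A and 0.667 CPM in WT, with Cd3d, Cd3e, Cd3g and Cd8a at 0 in both libraries. Of 6 listed B cell markers, 5 had a row, and these summed to 1.30 CPM in T403A and 0.733 CPM in WT. Among them Pax5 was at 0 in both, and most of the sum came from Cd79b, at 1.00 CPM in T403A and 0.533 CPM in WT. Of the 5 measured neutrophil markers 1 was lower, Camp, at 0.501 CPM in T403A and 1.47 CPM in WT. Another 1 was higher, S100a9, at 3.86 CPM in T403A and 1.87 CPM in WT. With scaling by library totals or by upper quartile 1 was lower and 2 were higher. The neutrophil markers summed to 11.6 CPM in T403A and 8.87 CPM in WT, with Elane and Ly6g at 0 in both. The erythroid and megakaryocyte markers summed to 5.97 CPM in T403A and 34.9 CPM in WT, mainly from Pf4, 7.17-fold lower, with Hba-a1 and Gp9 at 0 in both. The 7 dendritic cell markers summed to 2.16 CPM in T403A and 3.73 CPM in WT. Of the 2 measured 1 was lower, Xcr1, with only 6 counts in T403A and 19 in WT.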

How the data were processed

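Read counts per Ensembl gene were deposited as whole numbers, 1 column per library, per the file headers, and columns were matched to samples by title. Per the submitters' processing notes the build was GRCm38, and HTSeq 0.9.1, DESeq 1.30.0, HISAT2 and cutadapt 1.15 are listed with no role. Symbols were found for 21969 of 22060 genes. Deposited lengths matched the merged GENCODE M21 exons for 96.9% of genes. Counts were scaled by TMM (edgeR 4.0.16, R 4.3.3). Ratios carry exact Clopper-Pearson intervals on the paired counts (scipy 1.17.1), and quotients of 2 ratios conditional exact intervals. Log2 ratios use a prior count of 0.5. The interval and call rule were run on simulated counts with counting error only. That simulation holds no variation between mice or cultures, so it does not check the differences between these libraries. Sequences were aligned with biopython 1.88. Library totals were 18658381 for T403A and 16033032 for WT.

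The family, the gene lists and the rules for named genes were chosen with earlier results of these data known. All members and all signalling and growth control genes could be named, up to 4 genes of another list, neighbours that were called or nearest, and 2 nearest genes for each member. Slfn10-ps was not analysed here, and coding sequences were compared in place of the planned proteins, which were not used here. Some genes these rules pick are not reported here. Cell type markers were named among those called or at 0 in both libraries, and Ccr2, Lyz2 and Cd79b were added after their values were seen. Alternatives were other scalings (library totals, DESeq2 1.42.0 size factors, upper quartile, ribosomal protein genes), other fold and count thresholds, a prior count of 2 and leaving out the most abundant member.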

Additional observations from a re-analysis of the deposited data

How the results depend on the processing

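Of the 56 alternative values run, every fold kept its direction. The number of members called lower was 7 under the 4 other scalings, at 1.5-fold, with no filter on counts and with a filter at 100 summed counts, and 5 at 4-fold. Under those scalings, between 560 (library totals) and 695 (ribosomal protein genes) of the 11199 measured genes were called lower. The shares of all genes called at the other fold and count thresholds are not given here, so those member counts stand without a comparison. Scaling by library totals gave smaller folds outside the counting interval for Slfn2 (2.20), Slfn5 (11.7), Slfn8 (6.12), Slfn9 (2.78), Slfn8 with Slfn9 (4.88) and all members pooled (4.12). Upper-quartile scaling gave 2.40 for Slfn2 and 4.48 for all members pooled. Without Slfn2 the pool was 9.10-fold lower. The other 47 values stayed within the counting interval or the 1.5-fold limit for counts. The lowest counts, 9 for Slfn1 and 14 for Slfn4 in T403A, limit how precisely their folds are known. No paired analysis was possible because each group has 1 library.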
